A study of Mus musculus with 29 samples.

Results

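The semaphorins, plexins, neuropilins, ephrins, Eph receptors, netrins and netrin receptors were compared in cultured astrocytes. The cells had received Neurog2, Hmgb2, both or a control virus 48 h before. Members were taken by gene symbol alone: 65 symbols of these families were in the expression table, and 61 reached a mean of at least 1 on the regularized log2 (rlog) scale over all libraries, of 15719 genes that did. Epha6, Epha8, Epha10 and Ntn5 stayed under that minimum and were not tested. The 61 members comprise 33 ligands (20 semaphorins, 8 ephrins, 3 netrins and 2 netrin-Gs) and 28 receptors (9 plexins, 2 neuropilins, 11 Eph receptors and 6 netrin receptors).

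RNA-seq libraries were made from postnatal mouse cortical astrocytes expanded for 10 days either with EGF and bFGF or with bFGF alone, at 10 ng/ml of each factor, and transduced with retroviruses that drive their cargo from the CAG promoter. The control virus carried a fluorescent reporter only. The other viruses carried, with a reporter, Neurog2, a proneural transcription factor, or Hmgb2, a chromatin protein with high mobility group boxes. Some cells were given both (Neurog2+Hmgb2). Per the paper the reporter was GFP in the control and Hmgb2 viruses and dsRED in the Neurog2 virus. Cells with Neurog2 and control cells thus differed in reporter as well as in factor. Reporter-positive cells were sorted after 48 h. There were 29 libraries: 5 and 3 with the control virus, 3 and 4 with Neurog2, 4 and 4 with Hmgb2, and 3 and 3 with both, counting the EGF+bFGF culture first each time. The tissue came from wild-type C57BL/6J mice of postnatal days 5 to 6 per the protocol and the methods, and 6 to 8 per the series' design text. The labels name grey matter as the source and the methods name white matter, and nothing states that replicates came from separate animals or cultures, so the p-values measure the spread between these libraries.

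These families are the classical axon guidance systems. Semaphorins signal through plexins, with neuropilins as the ligand-binding partner for most secreted forms; ephrins are membrane-bound and signal through Eph receptor tyrosine kinases and, in reverse, into their own cell. Netrins are secreted cues read by Dcc and Neo1 and by the Unc5 receptors, whereas the membrane-anchored netrin-Gs bind other partners, and astrocytes as well as neurons carry members of every family.

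The virus genes were checked before the families. Hmgb2 lay between 11.48 and 13.32 in the libraries labelled Hmgb2 or Neurog2+Hmgb2 and between 9.34 and 10.89 in all others. Neurog2 lay between 12.36 and 14.29 in the libraries labelled Neurog2 or Neurog2+Hmgb2 and between 7.74 and 8.22 in the control libraries. All 8 libraries labelled Hmgb2 held Neurog2 between 9.35 and 11.47, above every control library and below every Neurog2 library, so they are called here the libraries labelled Hmgb2, and the calls that use them as cells without Neurog2 are also given without them. Group means of 14 astrocyte markers lay between 10.56 and 11.42. Single markers ran from Gfap (13.04 to 16.24) and Aqp4 (9.88 to 13.20) down to Ntsr2 (4.21 to 8.10) and S100b (4.03 to 7.03). Group means of 12 pericyte and fibroblast markers lay between 8.30 and 8.90 in the EGF+bFGF culture and between 9.01 and 9.73 in the bFGF culture. Among those, Col1a1 ran from 11.79 to 15.96 and Myh11 from 2.08 to 3.94. The mean of 18 microglia markers ranged from 4.61 to 8.70 in EGF+bFGF control, 4.72 to 7.55 in EGF+bFGF Neurog2, 4.63 to 5.41 in EGF+bFGF Hmgb2 and 5.20 to 8.70 in EGF+bFGF Neurog2+Hmgb2 libraries. In the bFGF culture the same mean ranged from 5.75 to 6.23 in control, 5.22 to 9.10 in Neurog2, 5.67 to 7.32 in Hmgb2 and 7.17 to 7.95 in Neurog2+Hmgb2 libraries. None of these 18 genes was at 0, and Csf1r ran from 4.71 to 9.95. One axis held 45.4% of the deviations of libraries from their group means, and 9 libraries lay at one end of it.

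Levels between genes were compared per length, as rlog minus the log2 of the merged exon length in kb. In control cells of the EGF+bFGF culture the most abundant receptor of the families was Plxnb2, a plexin for transmembrane semaphorins, at 8.53 ± 0.27 (SD, n = 5), followed by Neo1 at 7.19 ± 0.23 and Plxna1 at 6.97. The leading ligands on the same scale were Efnb1 at 7.56 ± 0.07, Efnb2 at 7.30 ± 0.46, Ntn4 at 6.70 ± 0.34, Efna4 at 6.33 ± 0.18 and Sema3c at 6.32 ± 0.67. Nrp1, the neuropilin with the higher level, stood at 6.77 and Ephb4 led the Eph receptors at 6.00. Efnb1 and Efnb2 did not differ beyond their spread, and neither did Neo1 and Plxna1. At the other end of the order were Sema3g at 0.59, Dcc at -0.06 and Unc5d at -0.20, so Sema3g and Dcc, the members with the largest differences in the average over all libraries with and without Neurog2, were among the least abundant in control astrocytes. In the bFGF culture Plxnb2 again led at 8.72, and Sema3g at 0.69, Dcc at 0.61 and Unc5d at 0.10 were again the lowest.

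**Figure D1:**
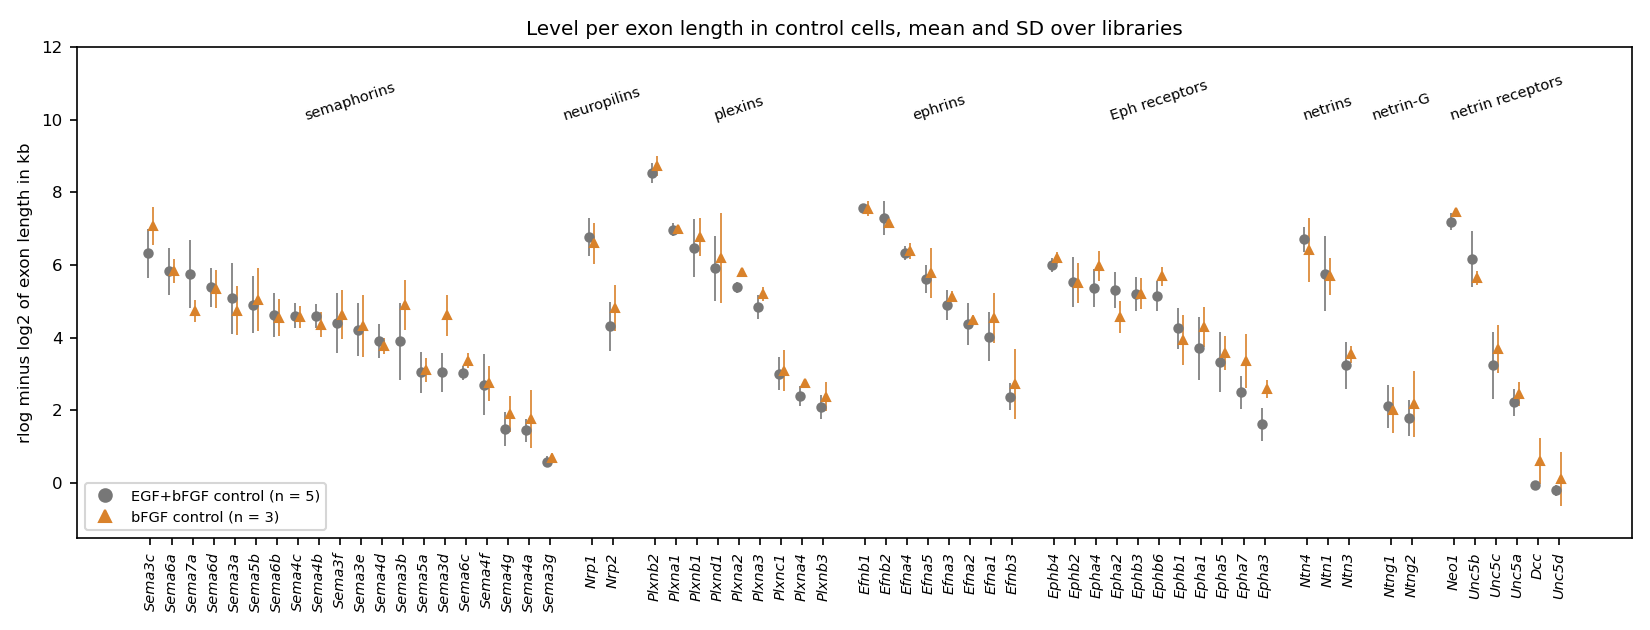
Level per exon length (rlog minus log2 of the merged exon length in kb, vertical axis) of each of the 61 members (horizontal axis, by family) in control cells; circles are the means of the 5 EGF+bFGF control libraries, triangles those of the 3 bFGF control libraries, bars the SD. Plxnb2 is highest at 8.53 and 8.72, Sema3g is the lowest semaphorin, and Dcc and Unc5d are the lowest netrin receptors.

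Within groups the members varied more than most genes. Their median SD within groups was 0.571 on the rlog scale, against 0.296 over all tested genes. Sema7a, a membrane-anchored semaphorin, had the largest at 1.17, with values from 5.89 to 9.33 among the 4 EGF+bFGF libraries labelled Hmgb2 and from 6.21 to 9.80 among the 3 EGF+bFGF Neurog2+Hmgb2 libraries. Plxnd1, the plexin of endothelial and neural cells that reads Sema3e, followed at 1.11 and spanned 7.78 to 10.04 in the EGF+bFGF controls. Differences of these genes between groups could be read only where they exceeded that spread.

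Which members differ when Neurog2 is added was asked first over all libraries, as the average over both cultures and over cells with and without the Hmgb2 virus (13 libraries with Neurog2 against 16 without). By limma with Benjamini-Hochberg adjustment over all tested genes, 10 of 61 members were higher and 4 lower at an adjusted p under 0.05. That is 16.4% of the members higher where 8.54% of all tested genes were, and 6.56% lower where 6.74% were. The median difference of the members was 0.04 and that of all genes 0.01 on the log2 scale. The semaphorins held 5 of the rises (Sema3g, Sema6c, Sema3e, Sema4d and Sema4c) and 1 fall (Sema3f) among 20 members. Of the 8 ephrins, Efna3 and Efna4 rose and Efnb1 fell; of the 6 netrin receptors, Dcc and Unc5a rose and Unc5c fell. Epha3 alone rose among 11 Eph receptors and Plxnb2 alone fell among 9 plexins, while 0 of the 2 neuropilins, 3 netrins and 2 netrin-Gs passed. With the libraries labelled Hmgb2 left out, so that Neurog2 and Neurog2+Hmgb2 libraries were set against controls, 9 members were higher (4.61% of all genes) and 1 lower (3.61% of all genes), and all 10 were among the 14. Sema4d, Sema3f, Efnb1 and Unc5c were the 4 that no longer passed, with fewer libraries and differences of 0.42, -1.07, -0.32 and -0.74. The 10 that passed kept differences of 2.45 (Sema3g), 1.61 (Dcc), 1.19 (Efna3), 1.07 (Sema3e), 0.97 (Epha3), 0.95 (Sema6c), 0.66 (Unc5a), 0.65 (Sema4c), 0.47 (Efna4) and -0.55 (Plxnb2).

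**Figure D2:**
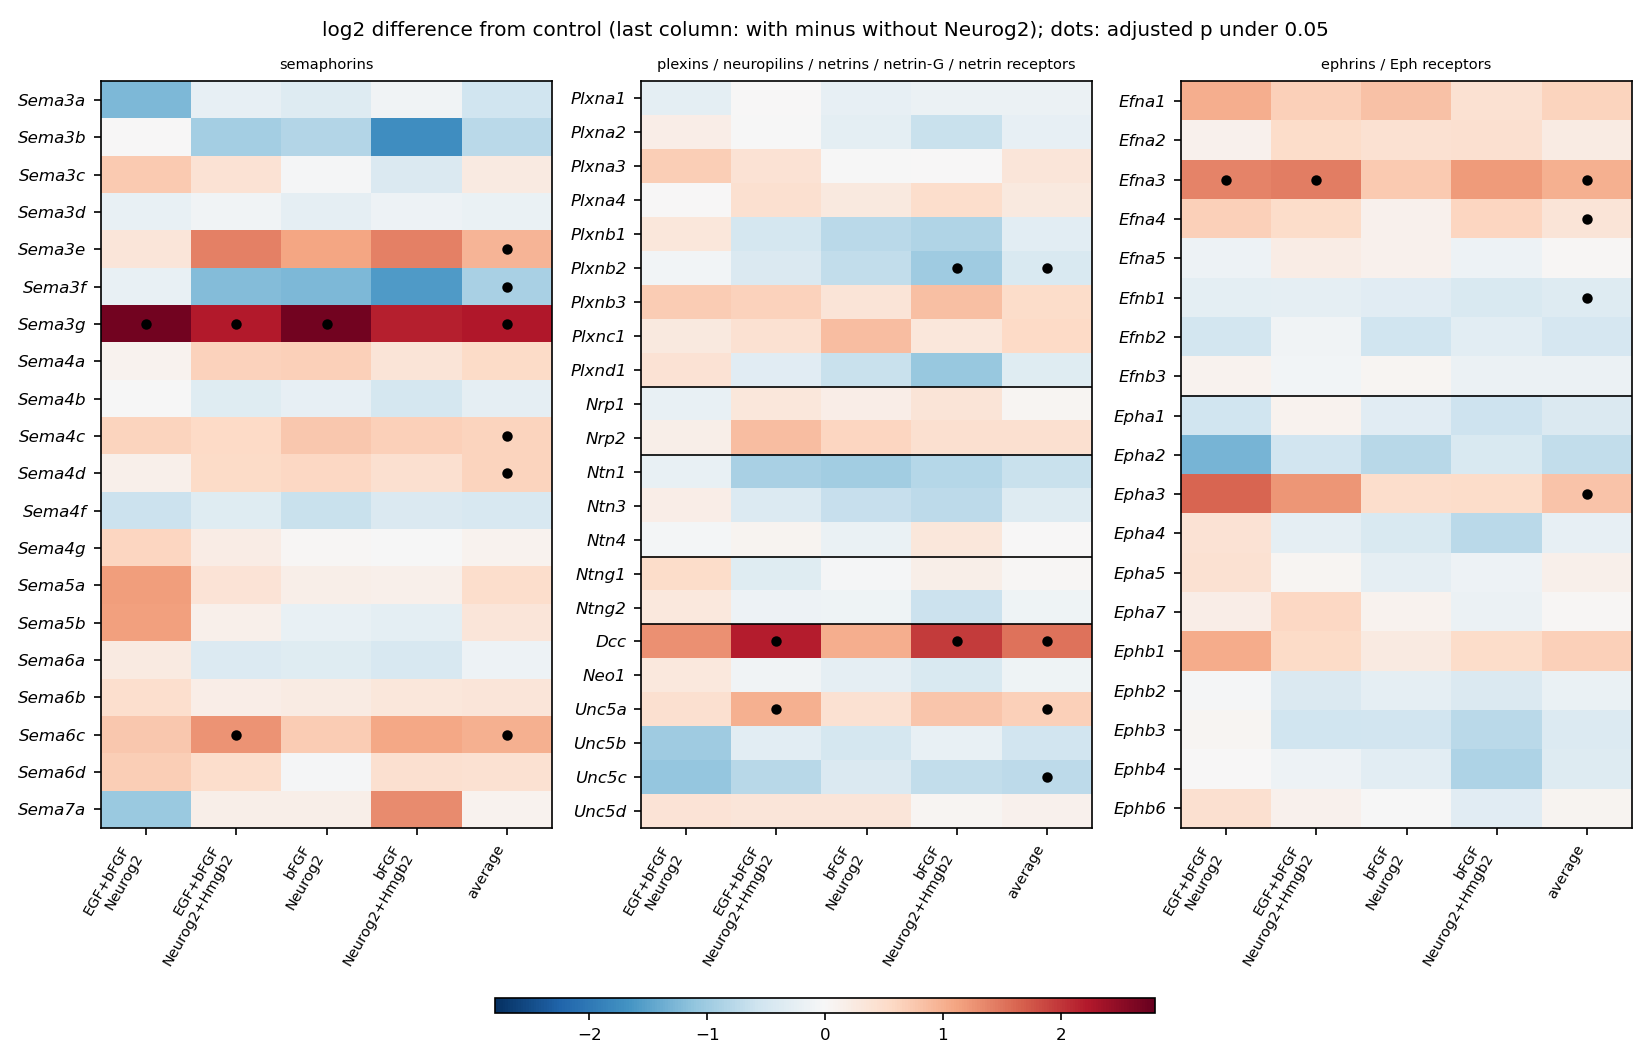
Log2 difference of rlog values (colour) of each member (rows, by family) in each comparison with the control of its culture, and in the average of libraries with minus without Neurog2 (last column); black dots mark an adjusted p under 0.05. Sema3g carries dots in 3 of the 4 comparisons with control, and the average column holds 14 dots.

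Sema3g, a secreted semaphorin that binds Nrp2, showed the largest difference of the families. In the EGF+bFGF culture it was at 2.64, 2.82, 2.98, 2.82 and 2.59 in control, 2.99, 2.84, 3.13 and 3.49 in Hmgb2, 4.97, 5.63 and 5.84 in Neurog2 and 5.56, 3.63 and 5.82 in Neurog2+Hmgb2 libraries. With bFGF alone Sema3g was at 2.79, 2.81 and 3.03 in control, 2.99, 2.81, 4.69 and 3.04 in Hmgb2, 4.26, 5.53, 6.85 and 5.64 in Neurog2 and 3.40, 5.51 and 6.21 in Neurog2+Hmgb2 libraries. Every library with Neurog2 was above every control library in its culture. Under bFGF the third library labelled Hmgb2 overlapped them, at 4.69, with Neurog2 at 10.80 in that library; the part of the latter in the former was not tested. The average difference was 2.24 ± 0.29 (SE; 4.72-fold, adjusted p = 7.46e-06), and 2.45 ± 0.37 (adjusted p = 0.000435) without the libraries labelled Hmgb2. The lowest values with Neurog2, 3.40 and 3.63, came from 2 of the 9 libraries at the end of the main axis of deviations.

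**Figure D3:**
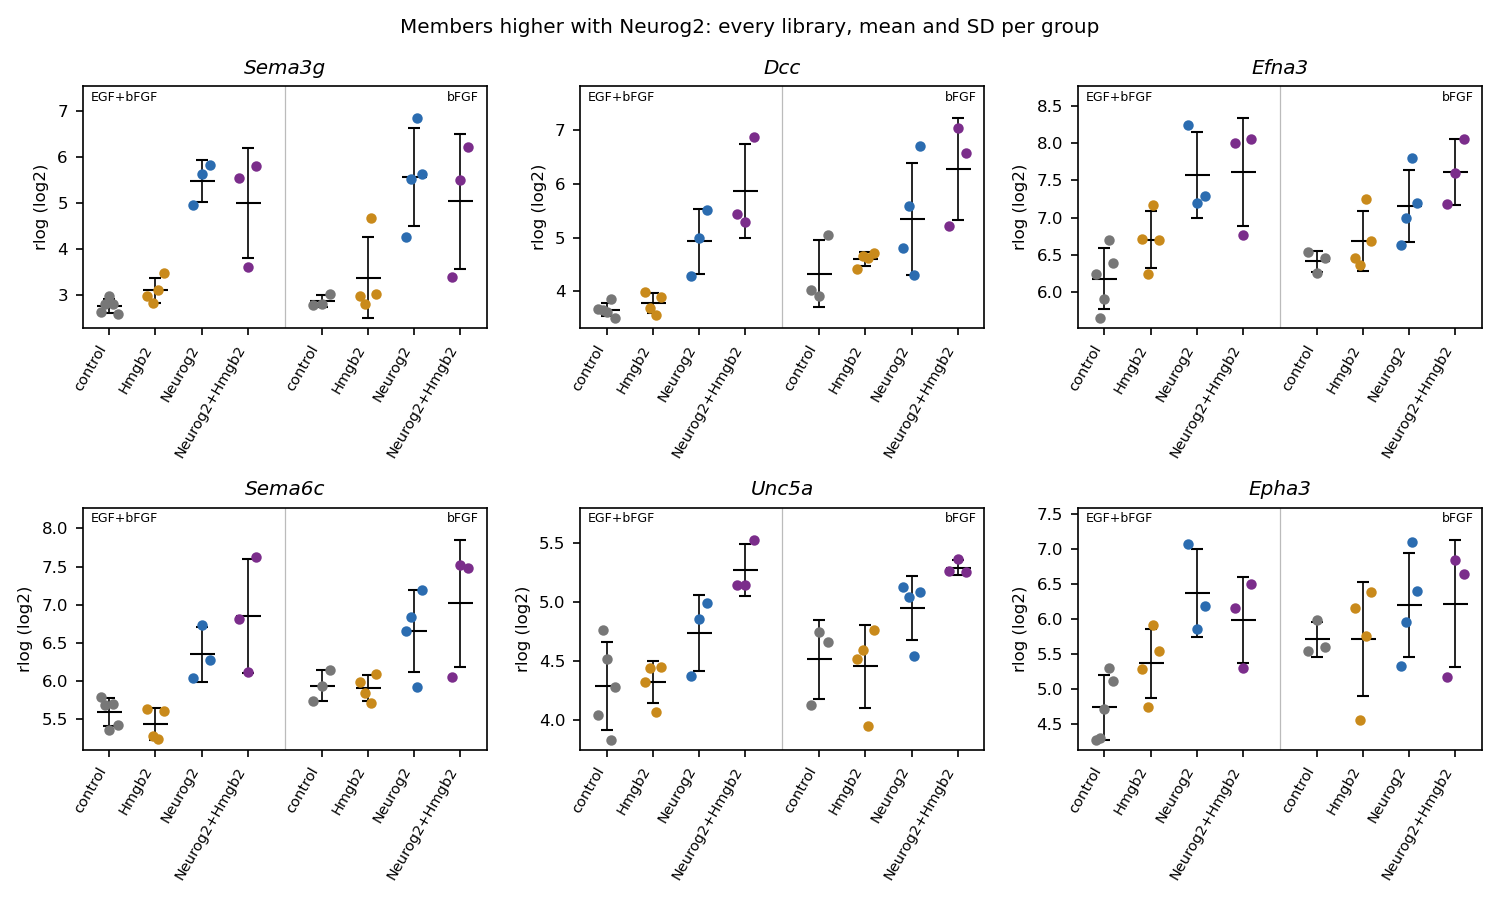
Rlog level (log2 scale, vertical axis) of 6 members in all 29 libraries, one point per library, by virus (horizontal axis) and culture (left and right of the grey line); bars are the mean and SD of each group. Libraries with Neurog2 (blue, purple) lie above the control libraries (grey) for Sema3g and Efna3 in each culture.

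Sema6c, a transmembrane semaphorin, was at 5.79, 5.69, 5.37, 5.70 and 5.43 in EGF+bFGF control, 5.64, 5.28, 5.25 and 5.60 in Hmgb2, 6.04, 6.74 and 6.28 in Neurog2 and 6.82, 6.12 and 7.62 in Neurog2+Hmgb2 libraries. Sema6c values under bFGF were 5.74, 5.94 and 6.15 in control, 5.99, 5.85, 5.71 and 6.10 in Hmgb2, 6.66, 6.84, 5.92 and 7.19 in Neurog2 and 6.05, 7.52 and 7.48 in Neurog2+Hmgb2 libraries. The groups with and without Neurog2 did not overlap in the EGF+bFGF culture and overlapped in the bFGF culture, and the average difference was 1.00 ± 0.16 (adjusted p = 0.000148). Sema4c, a transmembrane ligand of Plxnb2, was at 6.70, 7.41, 6.76, 6.55 and 6.61 in control, 6.65, 6.83, 6.78 and 6.82 in Hmgb2, 7.31, 7.54 and 7.40 in Neurog2 and 7.19, 7.27 and 7.66 in Neurog2+Hmgb2 libraries of the EGF+bFGF culture. With bFGF alone Sema4c was at 6.49, 6.72 and 7.09 in control, 6.84, 6.81, 7.25 and 6.89 in Hmgb2, 7.41, 7.62, 7.27 and 7.80 in Neurog2 and 6.88, 7.78 and 7.63 in Neurog2+Hmgb2 libraries. The difference of Sema4c was smaller, 0.61 ± 0.10 (adjusted p = 0.00025), with the second EGF+bFGF control library at 7.41 among the Neurog2 values. On the exons of Sema4c, 7.3% of the bases are shared with D430040D24Rik on the other strand. Sema3e, a secreted semaphorin that binds Plxnd1 directly, was at 6.64, 8.16, 8.26, 7.05 and 7.08 in control, 7.33, 8.58, 7.31 and 7.05 in Hmgb2, 7.66, 7.37 and 8.28 in Neurog2 and 8.67, 9.47 and 8.41 in Neurog2+Hmgb2 libraries of the EGF+bFGF culture. Under bFGF alone it was at 7.79, 8.23 and 6.59 in control, 8.57, 8.33, 7.12 and 7.52 in Hmgb2, 9.77, 8.96, 7.71 and 8.13 in Neurog2 and 9.50, 8.41 and 8.94 in Neurog2+Hmgb2 libraries. Its groups overlapped in each culture, and the difference was 0.95 ± 0.25 (adjusted p = 0.0122), or 0.67 ± 0.27 (adjusted p = 0.121) with the mean of the microglia markers in the model.

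Sema4d, a transmembrane semaphorin of immune and neural cells read by Plxnb1, was highest in libraries where the microglia markers were high. Its highest values were 8.21 in the second EGF+bFGF Neurog2+Hmgb2 library, 8.21 in the fourth bFGF Neurog2 library, 7.82 in the second bFGF Neurog2+Hmgb2 library and 7.64 in the second EGF+bFGF control library. The mean of the microglia markers in those libraries was 8.70, 9.10, 7.95 and 8.70. In full, the EGF+bFGF values were 6.73, 7.64, 6.39, 6.70 and 6.83 in control, 6.80, 5.75, 6.52 and 6.34 in Hmgb2, 6.70, 7.43 and 6.84 in Neurog2 and 6.87, 8.21 and 7.10 in Neurog2+Hmgb2 libraries. The bFGF values were 6.84, 6.46 and 6.82 in control, 6.00, 6.79, 6.18 and 6.53 in Hmgb2, 7.30, 7.14, 6.48 and 8.21 in Neurog2 and 6.64, 7.82 and 6.99 in Neurog2+Hmgb2 libraries. Outside the 4 libraries Sema4d lay between 5.75 and 7.43, and groups overlapped in each culture. The average difference with Neurog2 was 0.63 ± 0.19 (adjusted p = 0.0226), and with the marker mean as a covariate it was 0.27 ± 0.16 (adjusted p = 0.295). It also missed the threshold without the libraries labelled Hmgb2 (0.42 ± 0.24, adjusted p = 0.300), without the second EGF+bFGF Neurog2 library (0.58, adjusted p = 0.0516) and without the second bFGF Neurog2+Hmgb2 library (0.55, adjusted p = 0.054). In sorted bulk samples, fewer cells of a type and less RNA per cell cannot be told apart. Of the 18 microglia markers 4 were higher with Neurog2, with a median difference of 1.26, and of 12 neuron markers 6 were higher and 1 lower, beside 8.54% of all genes higher and 6.74% lower. Of 14 astrocyte markers 2 were lower, of 12 pericyte and fibroblast markers 3, of 6 endothelial markers 2, and of 12 oligodendrocyte lineage markers 0 were called. Without the libraries labelled Hmgb2 0 of the microglia markers were called (median 1.01), while 6 neuron markers were higher and 1 lower; 1 astrocyte, 2 pericyte and fibroblast and 2 endothelial markers were lower.

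**Figure D4:**
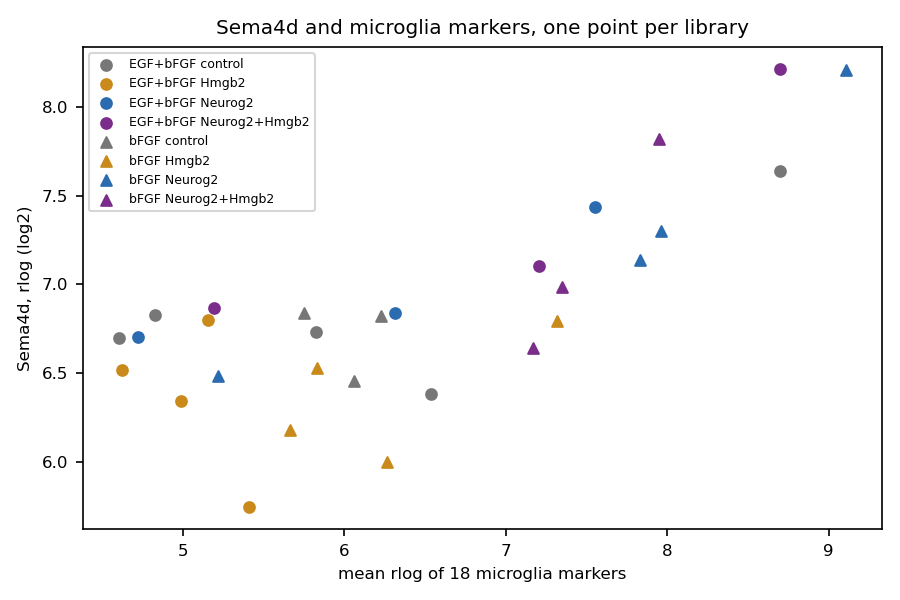
Sema4d (rlog, log2 scale, vertical axis) against the mean rlog of 18 microglia markers (horizontal axis), one point per library, coloured by virus; circles are EGF+bFGF, triangles bFGF libraries. The 4 libraries with Sema4d at 7.64 or more have marker means from 7.95 to 9.10.

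Among the ephrins, the membrane-anchored Efna3 rose the most. In the EGF+bFGF culture it was at 6.24, 5.65, 5.91, 6.70 and 6.39 in control, 6.71, 6.24, 7.17 and 6.70 in Hmgb2, 8.24, 7.20 and 7.29 in Neurog2 and 8.00, 6.77 and 8.05 in Neurog2+Hmgb2 libraries. With bFGF alone Efna3 was at 6.54, 6.26 and 6.45 in control, 6.45, 6.36, 7.25 and 6.68 in Hmgb2, 6.64, 6.99, 7.80 and 7.20 in Neurog2 and 7.18, 7.59 and 8.06 in Neurog2+Hmgb2 libraries. Every library with Neurog2 was above all controls of its culture, whereas the libraries labelled Hmgb2 overlapped those with Neurog2. The average difference was 0.99 ± 0.17 (adjusted p = 0.000227), and 1.19 ± 0.21 (adjusted p = 0.00184) without the libraries labelled Hmgb2. Efna4, a related ligand encoded near Efna3 on the same strand of chromosome 3, was at 6.84, 6.88, 7.29, 7.08 and 6.95 in control, 7.09, 7.58, 7.33 and 7.07 in Hmgb2, 7.84, 7.49 and 7.70 in Neurog2 and 7.93, 6.95 and 7.68 in Neurog2+Hmgb2 libraries of the EGF+bFGF culture. The bFGF values of Efna4 were 6.90, 7.30 and 6.97 in control, 7.45, 7.15, 6.99 and 7.29 in Hmgb2, 7.27, 7.18, 7.29 and 6.97 in Neurog2 and 7.52, 7.63 and 7.79 in Neurog2+Hmgb2 libraries. The groups overlapped in each culture, and the average difference was 0.37 ± 0.09 (adjusted p = 0.00821). Efnb1, a transmembrane ligand of EphB receptors, fell by 0.36 ± 0.11 on the log2 scale (9.02 against 9.38, adjusted p = 0.0362); the call was lost when any 1 of 10 libraries was left out, and without the libraries labelled Hmgb2 (-0.32 ± 0.16, adjusted p = 0.225). With the microglia markers in the model the Efnb1 difference was -0.24 ± 0.12 (adjusted p = 0.237). Behind it, EGF+bFGF values of Efnb1 were 9.29, 9.40, 9.25, 9.40 and 9.41 in control, 9.55, 9.36, 9.65 and 9.27 in Hmgb2, 9.48, 8.91 and 8.81 in Neurog2 and 9.36, 8.98 and 8.93 in Neurog2+Hmgb2 libraries, and bFGF values were 9.51, 9.42 and 9.10 in control, 9.61, 9.32, 9.26 and 9.32 in Hmgb2, 9.29, 9.53, 8.98 and 8.27 in Neurog2 and 9.29, 8.34 and 9.13 in Neurog2+Hmgb2 libraries. The lowest Efnb1 values, 8.27 and 8.34, came from the fourth bFGF Neurog2 and the second bFGF Neurog2+Hmgb2 library, where the mean of the microglia markers was 9.10 and 7.95. Exons of the antisense gene Gm15998 overlap 14.1% of those of Efna3, and exons of 4731419I09Rik on the other strand overlap 10.5% of those of Efna4. The library kit does not keep the strand, so reads from these overlaps cannot be told apart.

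Of the ephrin receptors, Epha3, a receptor of A-class ephrins, was at 4.28, 4.29, 4.71, 5.29 and 5.11 in EGF+bFGF control, 5.28, 4.74, 5.91 and 5.54 in Hmgb2, 7.06, 5.85 and 6.18 in Neurog2 and 6.16, 5.30 and 6.49 in Neurog2+Hmgb2 libraries. Under bFGF Epha3 was at 5.54, 5.99 and 5.59 in control, 6.16, 4.56, 5.76 and 6.38 in Hmgb2, 5.33, 5.95, 7.09 and 6.40 in Neurog2 and 5.17, 6.84 and 6.64 in Neurog2+Hmgb2 libraries. The libraries with Neurog2 were above the controls in the EGF+bFGF culture only. There the lowest of them, at 5.2955, nearly tied with the highest control, at 5.2919. The average difference of Epha3 was 0.81 ± 0.23 (adjusted p = 0.0189). A difference in its response between the cultures was not called. Epha2 was at 6.41 with and 7.10 without Neurog2 (-0.69 ± 0.24, adjusted p = 0.0524) and Ephb1 at 7.48 and 6.82 (0.66 ± 0.23, adjusted p = 0.0572), so neither passed.

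Dcc, the netrin receptor of growing commissural axons, was low in EGF+bFGF controls, at 3.67, 3.65, 3.62, 3.85 and 3.50. The EGF+bFGF libraries stood at 3.98, 3.69, 3.55 and 3.90 with Hmgb2, 4.29, 4.99 and 5.51 with Neurog2 and 5.44, 5.28 and 6.86 with Neurog2+Hmgb2. Under bFGF the Dcc values were 4.03, 3.91 and 5.04 in control, 4.42, 4.65, 4.61 and 4.72 in Hmgb2, 4.80, 5.59, 4.30 and 6.70 in Neurog2 and 5.22, 7.05 and 6.57 in Neurog2+Hmgb2 libraries. Groups with and without Neurog2 did not overlap in the EGF+bFGF culture, and overlapped in the bFGF culture through the third and first Neurog2 libraries. The average difference was 1.51 ± 0.23 (2.86-fold, adjusted p = 5.78e-05), or 1.61 ± 0.32 (adjusted p = 0.00416) without the libraries labelled Hmgb2.

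The Unc5 receptors, which mediate repulsion by netrins, split. Unc5a was at 4.04, 4.76, 4.52, 3.83 and 4.28 in EGF+bFGF control, 4.32, 4.44, 4.06 and 4.45 in Hmgb2, 4.37, 4.86 and 4.99 in Neurog2 and 5.14, 5.15 and 5.53 in Neurog2+Hmgb2 libraries. With bFGF alone Unc5a was at 4.13, 4.75 and 4.66 in control, 4.51, 4.59, 3.95 and 4.76 in Hmgb2, 5.12, 5.04, 4.54 and 5.08 in Neurog2 and 5.26, 5.36 and 5.25 in Neurog2+Hmgb2 libraries. The Neurog2+Hmgb2 libraries were above all others without Neurog2 in each culture, and the average difference was 0.67 ± 0.11 (adjusted p = 0.000217). Unc5c fell by 0.74 ± 0.23 on the log2 scale (6.98 against 7.72, adjusted p = 0.0324). Its controls were at 6.92, 8.48, 8.55, 6.82 and 6.76 in the EGF+bFGF and at 7.53, 8.71 and 7.59 in the bFGF culture, against 6.35, 6.42 and 6.50 in EGF+bFGF Neurog2, 6.57, 6.63 and 6.99 in EGF+bFGF Neurog2+Hmgb2, 8.16, 7.80, 6.87 and 7.30 in bFGF Neurog2 and 7.12, 7.38 and 7.25 in bFGF Neurog2+Hmgb2 libraries. The libraries labelled Hmgb2 were at 7.06, 8.60, 6.57 and 7.12 with EGF+bFGF and at 8.89, 8.08, 7.44 and 8.02 with bFGF, overlapping the others. The 3 control libraries at 8.48 or more were all at that end of the main axis, and without the 9 libraries there the difference was -0.30 ± 0.12 (adjusted p = 0.0894). It also missed the threshold without the libraries labelled Hmgb2 (-0.74 ± 0.26, adjusted p = 0.0877), and on leaving out the second EGF+bFGF Neurog2, the second bFGF control or the first bFGF Hmgb2 library (-0.74, -0.64 and -0.67, adjusted p = 0.0517, 0.0719 and 0.0544).

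Plxnb2 and Sema3f were the other members that fell. Plxnb2 was at 11.49, 11.34, 11.11, 11.62 and 11.82 in EGF+bFGF control, 11.90, 11.22 and 11.07 in Neurog2 and 11.52, 10.67 and 11.02 in Neurog2+Hmgb2 libraries. With bFGF alone Plxnb2 was at 11.97, 11.59 and 11.44 in control, 11.09, 10.81, 11.26 and 10.72 in Neurog2 and 10.59, 10.47 and 10.94 in Neurog2+Hmgb2 libraries. The libraries labelled Hmgb2 were at 11.82, 10.84, 11.59 and 11.19 with EGF+bFGF and 11.53, 11.24, 11.50 and 11.09 with bFGF. Under bFGF the Neurog2 and Neurog2+Hmgb2 libraries were below all controls, whereas in the EGF+bFGF culture they overlapped. Over all libraries it fell by 0.44 ± 0.12 on the log2 scale (adjusted p = 0.0144), and its difference was -0.23 ± 0.11 (adjusted p = 0.191) with the microglia markers in the model. Sema3f, a secreted repellent that binds Nrp2, fell by 0.90 ± 0.29 (5.84 against 6.74, adjusted p = 0.0371). The EGF+bFGF values of Sema3f were 6.78, 5.61, 6.56, 7.86 and 7.15 in control, 7.28, 5.48, 7.88 and 5.89 in Hmgb2, 7.58, 6.25 and 5.91 in Neurog2 and 6.47, 4.89 and 5.37 in Neurog2+Hmgb2 libraries, and the bFGF values were 7.56, 6.26 and 7.22 in control, 5.86, 6.72, 7.30 and 6.15 in Hmgb2, 5.03, 5.89, 6.89 and 5.25 in Neurog2 and 5.45, 5.38 and 5.45 in Neurog2+Hmgb2 libraries. The bFGF Neurog2+Hmgb2 libraries, at 5.43 ± 0.04 (SD, n = 3), lay below the bFGF controls at 7.01 ± 0.67 (SD, n = 3), and the call was lost on leaving out any 1 of 16 libraries. With the microglia markers in the model the Sema3f difference was -0.33 ± 0.24 (adjusted p = 0.429), and without the libraries labelled Hmgb2 it was -1.07 ± 0.33 (adjusted p = 0.0509).

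**Figure D5:**
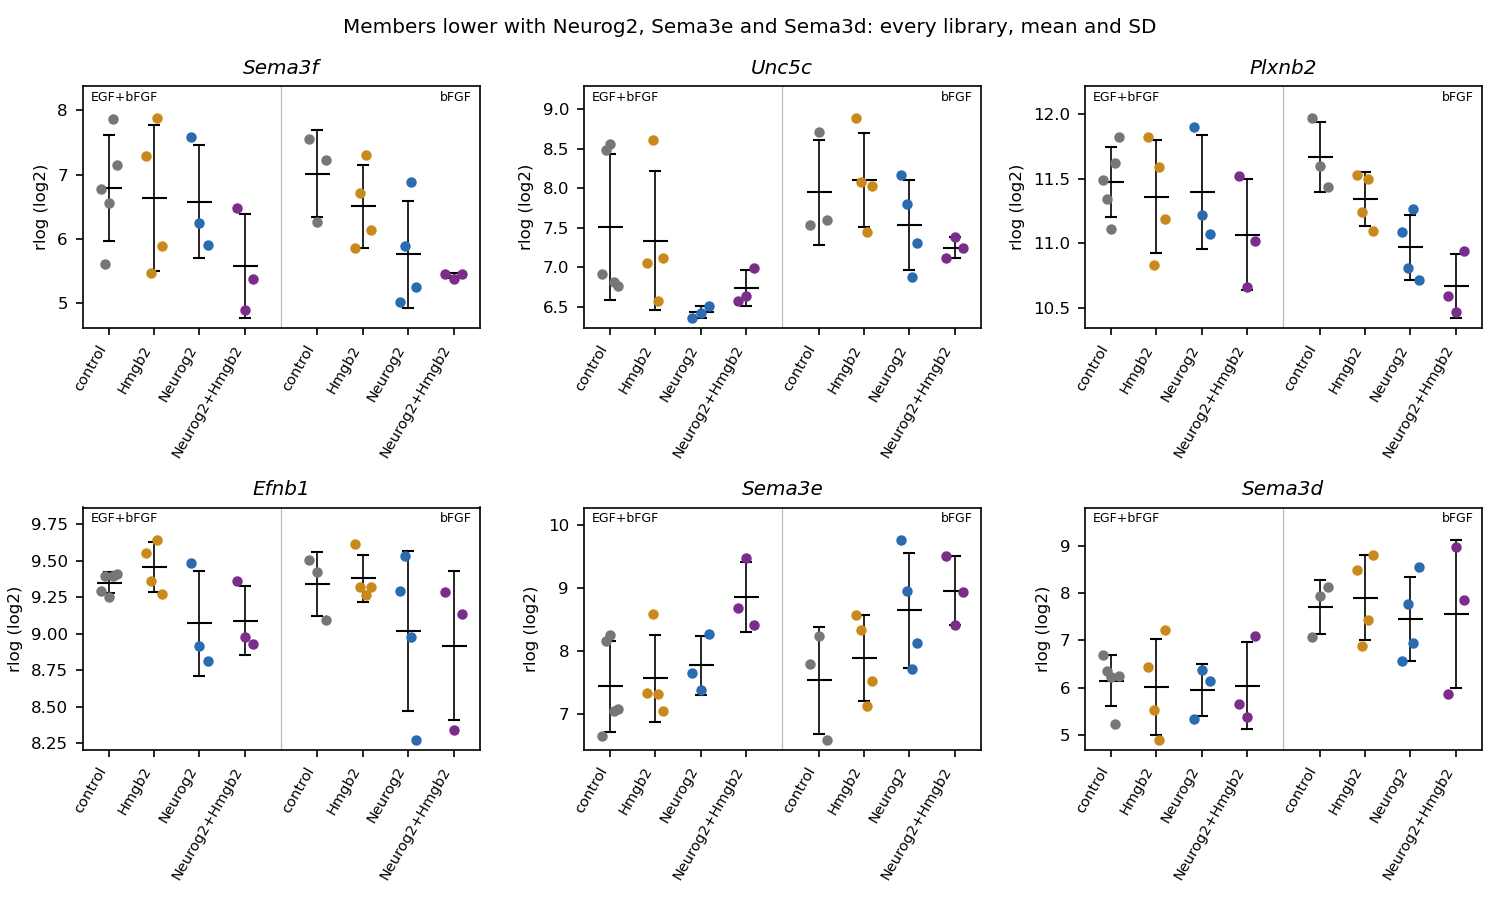
Rlog level (log2 scale, vertical axis) of 6 members in all 29 libraries, one point per library, by virus (horizontal axis) and culture (left and right of the grey line); bars are the mean and SD of each group. The group means of Plxnb2 and Sema3f are lowest in bFGF Neurog2+Hmgb2, and Sema3d is higher in the bFGF than in the EGF+bFGF culture in most libraries.

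Each virus was also compared with the control of its own culture; the Neurog2 and Neurog2+Hmgb2 comparisons of a culture share those control libraries. In the EGF+bFGF culture, Neurog2 raised Sema3g (2.71 ± 0.56, 6.54-fold, adjusted p = 0.00846) and Efna3 (1.39 ± 0.32, 2.63-fold, adjusted p = 0.0219), 2 of 61 members where 1.35% of all tested genes were higher; 0 members were lower (0.229% of all genes), and 15 members (24.6%) had an unadjusted p under 0.05, as did 12.4% of all genes. The Efna3 call was lost without Neurog2 replicates 1 or 3 (1.06 and 1.54) or without control replicates 2 or 3 (1.26 and 1.33), and that of Sema3g without Neurog2 replicates 2 or 3 (2.63 and 2.53, adjusted p = 0.0587 and 0.0846). In the bFGF culture Neurog2 raised Sema3g (2.70 ± 0.58, 6.48-fold, adjusted p = 0.0366), 1 member higher beside 0.337% of all genes and 0 lower beside 0.0127%. That call was lost on leaving out any of the 3 bFGF control libraries, bFGF Neurog2 replicates 2, 3 or 4, or EGF+bFGF control replicate 1, with differences from 2.27 to 3.13 over all libraries left out in turn. Epha3 at 1.63 ± 0.45 (adjusted p = 0.0653) and Efna4 at 0.67 ± 0.18 (adjusted p = 0.0586) in the EGF+bFGF culture missed the threshold.

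With Neurog2+Hmgb2, 5 members were higher than control in the EGF+bFGF culture, beside 1.46% of all genes, and 0 were lower beside 0.522%. They were Dcc (2.21 ± 0.44, 4.62-fold, adjusted p = 0.00636), Sema3g (2.23 ± 0.56, 4.68-fold, adjusted p = 0.0348), Efna3 (1.43 ± 0.32, adjusted p = 0.0183), Sema6c (1.26 ± 0.31, adjusted p = 0.0339) and Unc5a (0.99 ± 0.22, adjusted p = 0.0151). Without the third Neurog2+Hmgb2 library none of the 5 passed (1.71 for Dcc, 1.82 for Sema3g, 1.21 for Efna3, 0.87 for Sema6c and 0.86 for Unc5a). Without the first, Sema3g, Efna3 and Sema6c did not (1.95, 1.23 and 1.28), and without control replicates 1, 3, 4 or 5 Sema3g (2.18 to 2.28) and Sema6c (1.20 to 1.31) did not. In the bFGF culture Dcc was higher (1.95 ± 0.49, 3.87-fold, adjusted p = 0.0446) and Plxnb2 fell by 1.00 ± 0.26 (adjusted p = 0.0489), 1 member each way beside 1.03% and 0.452% of all genes. Both calls were close to the threshold: that of Dcc was lost on leaving out any 1 of 19 libraries (differences from 1.57 to 2.48 over all libraries left out in turn) and that of Plxnb2 any 1 of 21 (from -1.14 to -0.85). With the microglia markers in the model the differences were 1.66 ± 0.49 for Dcc (adjusted p = 0.129) and -0.75 ± 0.22 for Plxnb2 (adjusted p = 0.118), and Efna3 was the 1 member called (1.61 ± 0.26, adjusted p = 0.00289). Sema3g at 2.17 ± 0.62 (adjusted p = 0.085) did not pass there, although its 3 libraries, at 3.40, 5.51 and 6.21, were all above the controls.

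A stricter view asked for which members every library with Neurog2 lay beyond every library without it. In the EGF+bFGF culture this held for Dcc, Sema3g and Sema6c, all above, 3 of 61 members where 1.2% of tested genes were above and 0.56% below. In the bFGF culture it held for 0 members, where 0.91% of tested genes were above and 0.42% below. Those counts take the libraries labelled Hmgb2 as cells without Neurog2. Against the controls alone, Dcc, Efna3, Epha3, Sema3g and Sema6c lay above in the EGF+bFGF culture, 5 members where 2.23% of tested genes were above, and 0 lay below (1.29%). For Epha3 this was a near tie (5.2955 against 5.2919). In the bFGF culture Efna3 and Sema3g then lay above, 2 members beside 2.82% of tested genes, and Ntn3, Plxna2 and Plxnb2 below, 3 members beside 2.19%.

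Adding Hmgb2 changed no member past the threshold. Libraries labelled Hmgb2 differed from control in 0 members in the EGF+bFGF culture (0.0127% of all genes, either direction) and 0 in the bFGF culture (0.00636%), and 0 members had an unadjusted p under 0.05 by limma in either, beside 0.782% and 0.414% of all genes. Neurog2+Hmgb2 against Neurog2 gave 0 members in the EGF+bFGF culture (0.00636% of all genes) and 0 in the bFGF culture (0.00636%). At an unadjusted p under 0.05 there was 1 member in each, Unc5a and Efna4, beside 3.72% and 2.2% of all genes. Averaged over cultures and Neurog2 the count was again 0 (0.0127%), with 2 members at an unadjusted p under 0.05 beside 5.55% of all genes. Dcc had the smallest p of the members in that average (adjusted p = 0.779 by limma). The mean of Dcc with both viruses differed from that with Neurog2 by 0.94 ± 0.49 and 0.93 ± 0.46 in the EGF+bFGF and bFGF culture (adjusted p = 0.802 and 0.998). Neither passed, and the libraries of those groups overlapped in each culture. Sema3g was at -0.48 ± 0.62 and -0.53 ± 0.58 in the same comparisons.

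The cultures differed in Sema3d, a secreted semaphorin. It was at 6.69, 6.34, 6.23, 5.23 and 6.25 in EGF+bFGF and at 7.07, 7.95 and 8.13 in bFGF control libraries, and from 4.89 to 7.21 in the other EGF+bFGF and from 5.87 to 8.98 in the other bFGF libraries. Control libraries of the cultures did not overlap for it, and over all groups it was 1.62 ± 0.32 higher in the bFGF culture (3.08-fold, adjusted p = 0.0194), 1 member where 0.757% of all genes were higher and 0 where 0.426% were lower. Leaving out the first EGF+bFGF Neurog2+Hmgb2 library (1.57, adjusted p = 0.0502) or the second bFGF control library (1.59, adjusted p = 0.0523) took it just past the threshold. All group means of the pericyte and fibroblast markers were also higher in the bFGF than in the EGF+bFGF culture. Their part in the Sema3d difference was not tested. Plxna4 was the next member, at 6.84 in the bFGF and 6.30 in the EGF+bFGF culture (0.54 ± 0.14, adjusted p = 0.0531). Between control cells alone 0 members passed (0% of all genes). At an unadjusted p under 0.05 there were 4 members (6.56%), Sema3d at 1.57 ± 0.62 among them, beside 6.42% of all genes. The response to Neurog2 differed between cultures for 0 members (0% of all genes), and the difference for Plxnb2 was -0.50 ± 0.24 (adjusted p = 1). Plxna2 and Plxnb2 were the 2 members (3.28%) at an unadjusted p under 0.05, beside 2.08% of all genes. Without the libraries labelled Hmgb2 the count was again 0, with the same 2 members beside 1.99% of all genes.

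The abundant members with no call differed in how far their group means spread. Means of Efnb2, a transmembrane ligand of EphB and EphA4 receptors, ran from 9.39 (bFGF Neurog2) to 10.21 (bFGF Hmgb2), and those of Plxnb1, the receptor of Sema4d, from 9.21 (bFGF Neurog2+Hmgb2) to 10.05. Group means of Neo1, the ubiquitous netrin and repulsive guidance molecule receptor, lay between 10.16 and 10.60, those of Nrp1 between 9.85 and 10.39, those of Ntn4, a netrin of basement membranes, between 8.13 and 8.71, and those of Sema3c between 9.16 and 9.92. Ntn1, the founding netrin, had means of 8.41 ± 1.03 and 8.34 ± 0.50 in EGF+bFGF and bFGF control, of 8.20 ± 1.31 and 7.37 ± 0.70 in Neurog2 and of 7.49 ± 0.78 and 7.54 ± 0.75 in the Neurog2+Hmgb2 libraries (SD), and was not called.

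Genes that act with these families inside or at the surface of the cell were taken from lists of 27 semaphorin, 24 ephrin and 24 netrin partners, of which 27, 23 and 24 were tested. Beside the following counts, 8.54% of all tested genes were higher and 6.74% lower in the same comparison. With Neurog2, on average, 3 semaphorin partners were higher and 2 lower. Crmp1, a collapsin response mediator, was 1.20 ± 0.18 higher (9.17 against 7.97, adjusted p = 6.02e-05) and Mical3 0.46 ± 0.06 higher, while Rnd3 fell by 0.49 ± 0.13. Among ephrin partners 4 were higher and 3 lower: Chn2, a Rac-inactivating chimaerin, rose by 1.37 ± 0.29 (adjusted p = 0.00187), the adaptors Anks1 and Nck2 by 0.73 ± 0.11 and 0.55 ± 0.09, and the exchange factor Kalrn by 0.37 ± 0.10. Of the netrin partners 5 were higher and 1 lower. Dscaml1, a relative of the netrin receptor Dscam, rose by 2.22 ± 0.27 (7.67 against 5.45, adjusted p = 3.37e-06), Flrt1, a ligand of Unc5 receptors, by 1.37 ± 0.21 and Cbln4, a secreted Dcc-binding protein, by 1.22 ± 0.20, while Flrt2, also an Unc5 ligand, fell by 0.77 ± 0.22. Without the libraries labelled Hmgb2, 3 semaphorin partners were higher and 1 lower, 3 ephrin partners higher and 0 lower, and 3 netrin partners higher and 0 lower, beside 4.61% and 3.61% of all genes. Kalrn (0.32 ± 0.11, adjusted p = 0.0843) and Flrt2 (-0.68 ± 0.27, adjusted p = 0.128) were among those that no longer passed. The medians of the semaphorin, ephrin and netrin lists were -0.02, -0.10 and 0.14, beside 0.01 over all genes.

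Promoter windows of RefSeq (GRCm38.p6, 250 bases before to 50 after a start) were on hand for 52 of the 61 members, 66 windows. Both strands were searched for the E-box CANNTG, the type of site that proneural factors bind. Its forms CAGATG (the GA form) and CAGCTG (the GC form), named by their central bases, were searched as well. Any E-box, these forms included, was in 43.9% of the member windows and in 72.3% of all 32851 windows. The GA form was in 7.6% and 17.2%, and the GC form in 10.6% and 16.3%. Shown are the 4 windows with the GA or the GC form that belong to members called higher in the average over all libraries. Those with the GC form were added after their values were seen. The call of Sema4d was lost without the libraries labelled Hmgb2 and with the microglia markers in the model. Capitals mark the matching letters, and positions are counted back from the base before the start. The window of Efna3 (chr3:89322890-89323189, minus strand) holds the GA form at -250. That of Sema3g (chr14:31217623-31217922, plus strand) holds the GC form at -210. The GC form is at -141 in that of Sema6c (chr3:95164089-95164388, plus strand) and at -90 in that of Sema4d (chr13:51756634-51756933, minus strand). A match is a description of these letters only.
Efna3: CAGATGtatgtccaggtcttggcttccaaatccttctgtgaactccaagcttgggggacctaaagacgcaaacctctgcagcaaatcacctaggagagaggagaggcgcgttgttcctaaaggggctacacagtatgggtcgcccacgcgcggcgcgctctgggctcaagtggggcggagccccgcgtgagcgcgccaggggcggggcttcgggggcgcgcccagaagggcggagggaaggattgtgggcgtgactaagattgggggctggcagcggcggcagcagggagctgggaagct
Sema3g: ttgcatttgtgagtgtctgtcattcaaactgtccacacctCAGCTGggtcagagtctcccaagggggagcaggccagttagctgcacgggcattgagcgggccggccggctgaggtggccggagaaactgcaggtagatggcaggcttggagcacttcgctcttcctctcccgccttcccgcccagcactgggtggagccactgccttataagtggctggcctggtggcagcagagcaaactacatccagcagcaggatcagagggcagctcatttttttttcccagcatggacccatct
Sema6c: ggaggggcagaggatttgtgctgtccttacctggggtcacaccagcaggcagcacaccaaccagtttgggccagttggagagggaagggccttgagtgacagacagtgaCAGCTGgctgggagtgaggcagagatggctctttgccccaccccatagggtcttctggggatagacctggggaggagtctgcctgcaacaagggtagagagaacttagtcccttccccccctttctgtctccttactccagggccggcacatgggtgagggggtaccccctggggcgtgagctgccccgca
Sema4d: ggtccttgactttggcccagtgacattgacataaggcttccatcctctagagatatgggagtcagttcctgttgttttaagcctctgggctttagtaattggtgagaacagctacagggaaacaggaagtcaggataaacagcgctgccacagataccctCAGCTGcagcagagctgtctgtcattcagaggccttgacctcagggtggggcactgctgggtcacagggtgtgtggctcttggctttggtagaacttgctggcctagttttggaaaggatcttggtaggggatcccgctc

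The Sema3g window is the only one listed for that gene, which lies on the plus strand of chromosome 14 from 31217860 to 31230352 (GENCODE M21). Efna3 and Sema6c each have a second window without either form, and Sema4d has 2 others. The windows of Epha3, Efna4 and Unc5a, which also rose, held no E-box. Of the other members that rose, Sema3e had 2 E-boxes in its window and Sema4c had 1 in a window. None of those was the GA or the GC form. For Dcc no window was on hand.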

How the data were processed

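Members and gene lists were chosen with earlier results of these data known. Reads of the unstranded libraries were, per the authors' methods and the submitters' processing notes, checked with FastQC, aligned with STAR, counted with HTSeq (0.9.1) and normalized with DESeq2 (1.36.0 in the notes, another version in the methods). The deposited table holds one regularized log2 (rlog) value per gene and library, made by the authors, which shrinks differences of weakly counted genes towards the mean, so low members may be understated. It gives no counts, so the depth of each library is unknown beyond the approximate reads per sample that the paper's methods name. All 29 columns matched a sample by title and 0 were left over.

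Here limma (3.58.1, R 4.3.3) was fitted to 15719 of 25239 genes with a mean rlog of at least 1, with the 8 group means, a variance trend and 21 residual degrees of freedom. Adjusted p-values are Benjamini-Hochberg over all tested genes, and a call needs one under 0.05 at any fold. Named are members called in at least 1 of 13 comparisons, the most abundant of each family, those whose libraries with and without Neurog2 do not overlap within a culture and, of each partner list, at most 4 called genes in order of p (1 of them is not reported here); members named for their spread or for missing the threshold narrowly were chosen after their values were seen. Gene positions are GENCODE M21 (GRCm38), promoters RefSeq. Scripts were tested on simulated data. Alternatives covered filters, centring, weights, blocks, covariates and leaving out each library; those without the libraries labelled Hmgb2 (or against the controls alone) and without the 9 libraries were chosen after seeing the data. No pairing of same-numbered libraries was established. Deviations from the group means were correlated between groups. Only for Neurog2 and Neurog2+Hmgb2 of the EGF+bFGF culture did every library correlate best with its own number (0.171 to 0.35 in 3 of 3 pairs).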

Additional observations from a re-analysis of the deposited data

Results flagged for a closer look

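In 4 of 60 groups of 4 or 5 libraries, over the 15 members called in at least 1 comparison, a single library stood far from the rest of its group; chance gives about 1 in 20 such groups. Sema3g was at 4.692 in replicate 3 of the bFGF libraries labelled Hmgb2, whose others lay between 2.806 and 3.035. Sema4c was at 7.411 in replicate 2 of the EGF+bFGF controls, with the others between 6.55 and 6.758. Unc5a was at 4.541 in replicate 3 of bFGF Neurog2, below the others at 5.043 to 5.122. Efnb1 was at 9.613 in replicate 1 of the bFGF libraries labelled Hmgb2, with the others between 9.262 and 9.322.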

How the results depend on the processing

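Over 25 differences of single members, 1048 values under alternatives gave 890 that kept their call, 158 that missed the threshold and 0 that changed direction. Of these values, 725 left out 1 library, which cannot change a difference between 2 other groups. The fold threshold, the variance trend, the filters on low values and fitting only the groups compared cannot change a difference either. For such values the direction was fixed in advance. Of the 14 members called with Neurog2 on average, 8 kept the call in every alternative except a demand for more than 2-fold, which left 2 of the 14 and, for bFGF Neurog2+Hmgb2 against control, 1 of 2. With no filter on low values the calls were 0 for bFGF Neurog2, 3 for EGF+bFGF Neurog2+Hmgb2 and 0 for bFGF Neurog2+Hmgb2 (1, 5 and 2 in the report), and with only the groups compared 0, 1 and 0. For bFGF Neurog2+Hmgb2, a mean rlog of at least 4, quantile normalization, no variance trend and a robust trend each gave 1. The microglia covariate also gave 1, Efna3, with neither Dcc nor Plxnb2 called, and it gave 5 for EGF+bFGF Neurog2 (2 in the report) and 2 for bFGF Neurog2. Array weights gave 11 for EGF+bFGF Neurog2, 4 for bFGF Neurog2, 10 for EGF+bFGF Neurog2+Hmgb2, 10 for bFGF Neurog2+Hmgb2, 29 for the Neurog2 average and 12 for the culture average (1 in the report). Without the 9 libraries the counts were 5 for EGF+bFGF Neurog2, 10 for EGF+bFGF Neurog2+Hmgb2 and 6 for the culture average. The cause of these changes was not tested. Counts under alternatives, here and below, stand without the share of all genes called under the same setting. They are thus no measure of a response of the members beyond that of other genes.

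The replicate block gave 3, 1, 4 and 3 calls in the 4 comparisons with control, in the same order, and 18 for the average. Correlations of same-numbered libraries ran from -0.608 to 0.808, so the numbers do not establish a pairing. For Neurog2+Hmgb2 against Neurog2 of the EGF+bFGF culture, where each library correlated best with its own number, the count was 0 with and without the block. A replicate block within each culture gave 4 for EGF+bFGF Neurog2, 4 for bFGF Neurog2+Hmgb2 and 22 for the average, and could not be fitted for the culture comparisons. Leaving out 1 library at a time gave 0 to 3, 0 to 1, 0 to 6 and 0 to 4 calls against control, 10 to 19 for the average, 0 to 3 for the culture average and 0 in the other 7 comparisons. The depth of each library is unknown, and groups of 3 to 5 libraries limit what could be called.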
